A study of Mus musculus with 6 samples.

Results

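Chromatin accessibility was examined at 9 genes that the study names for changed RNA or a changed histone mark: Bglap3, Mt1, Aplp1, Kirrel2, Khdc1a, Wdfy1, Apobec3, Tcf4 and Bach1. A peak, meaning a stretch of genome called as accessible, was taken as a member when the gene name attached to it in the deposited peak table was exactly one of these 9 symbols. This gave 35 of the 123510 peaks, of which 61914 carry a gene name. The 35 peaks belonged to 8 of the 9 genes, with 16 at Tcf4, 7 at Wdfy1, 4 at Bach1, 2 each at Aplp1, Kirrel2 and Apobec3, and 1 each at Mt1 and Khdc1a. Bglap3 had no peak of its name.

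The assay was ATAC-seq, which uses a transposase to insert adaptors where chromatin is open, applied to nuclei of whole small intestinal crypts from C57BL/6 mice. Smarcad1 is a chromatin remodeller of the SWI/SNF-like ATPases that has been linked to heterochromatin and histone H3 lysine 9 methylation, and the comparison asked what its loss does to accessibility. The WT group held 3 libraries labelled wild type, and the labels do not say whether those mice carried loxP sites or Cre. The KO group held 3 libraries in which Vil-Cre, driven by a villin promoter active in intestinal epithelium, deletes exons 12 to 14 of a floxed Smarcad1 gene, so other cell types in the preparation keep the gene. The floxed mice derive from targeted embryonic stem cells, and ages are not given in the labels. No agent is described for the mice of either group. In the study's protocol crypt cells were dissociated with a ROCK inhibitor and N-acetylcysteine, and nuclei were prepared in a buffer with sodium butyrate.

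The members have unlike roles and were named by the study for unlike changes. Bglap3, Mt1, Aplp1, Kirrel2 and Khdc1a were named for higher RNA in the KO, and Wdfy1 among innate immunity genes with altered RNA, most of them raised. That RNA came from other preparations than these crypt nuclei, among them sorted intestinal cells, organoids and colon crypts. The study lists Kirrel2 and Khdc1a for organoids and colon, and found no significant rise of Mt1 in organoids. The organoids came from mice in which the gene had been deleted in oocytes. Apobec3 was named for more H3K9me3 over its gene body with less RNA, Tcf4 for more H3K9me3 over its gene body without an RNA change, and Bach1 for a change in H3K9me3 in the KO colon. H3K9me3, trimethylated lysine on histone H3, marks compact and silent chromatin, whereas accessible chromatin is typical of active promoters and enhancers. A transcribed gene usually shows an accessible region at its start, and an open region is necessary but not sufficient for transcription.

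Values are log2 normalised read counts per peak. Each library had between 4339306 and 16301164 reads in peaks, with KO library 3 the shallowest and WT library 3 the deepest. Number 2 libraries were the lowest of their group in both WT and KO at 62.9% of the 16584 peaks at gene starts and at 38.9% of all peaks, and the same held for 16 of the 35 member peaks (45.7%). None of the 4 peaks over Smarcad1 covered the floxed exons, so the deletion could not be checked here. Among markers, 5 of 8 intestinal epithelial genes had a peak at the gene start, against 0 of 5 immune genes and 1 of 5 stromal and vessel genes (Col1a1, log2 difference 0.35, KO minus WT). The epithelial genes without such a peak were Epcam, Krt8 and Vil1, the villin gene. A missing start peak therefore does not show that a gene is inactive or a cell type absent. In these bulk nuclei a change in the share of a cell type and a change in accessibility per nucleus cannot be told apart.

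Across the member peaks, those of Mt1, Aplp1, Kirrel2 and Khdc1a, which were named for higher RNA, had higher means in the KO. Bglap3, also named for higher RNA, had no peak of its name to compare. The peaks of Wdfy1, named among mostly raised genes, and of Apobec3, Tcf4 and Bach1 were spread around 0. All 6 peaks at Mt1, Aplp1, Kirrel2 and Khdc1a had a higher mean in the KO, with log2 differences (KO minus WT) from 0.33 to 0.79 and a median of 0.55. Of the 7 Wdfy1 peaks 3 had the higher mean in the KO, and of the 22 peaks at Apobec3, Tcf4 and Bach1 12 did, with a median of 0.03. Over all peaks 46.9% had the higher mean in the KO, the median difference was -0.02, and the middle 50% lay between -0.19 and 0.14. The Aplp1 and Kirrel2 peaks are neighbours on 1 chromosome segment, so they are not separate observations of separate loci.

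None of the 35 peaks was called in the reported fit, which leaves out the library number. The limma test, fitted over all 123510 peaks with Benjamini-Hochberg adjustment, called 0 member peaks at an adjusted p below 0.05 and 0.0% of all peaks, and the smallest adjusted p of a member was 1.0. The same test on reads recovered from the normalised values, weighted by limma's voom, also called 0 member peaks. The study's own edgeR test did report sites with changed accessibility, mostly increases. The 0.0% of all peaks therefore belongs to the limma fit and does not mean that no site changed. At an unadjusted p below 0.05, 1 member peak was higher in the KO (2.86% of 35, against 0.909% of all peaks) and 0 were lower (against 1.37%). This count was 0 without WT library 1, KO library 1 or KO library 3, 2 without WT library 3, and 3 without WT library 2 or KO library 2. All 3 KO values exceeded all 3 WT values at 3 member peaks (8.57%, against 2.7% of all peaks), and lay below them at 1 (2.86%, against 4.1%). An alternative limma fit with the library number as a replicate block called 3 member peaks, at Mt1, Kirrel2 and Khdc1a, among 272 of all peaks. The labels do not pair the libraries, and this fit is described with the processing.

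**Figure D1:**
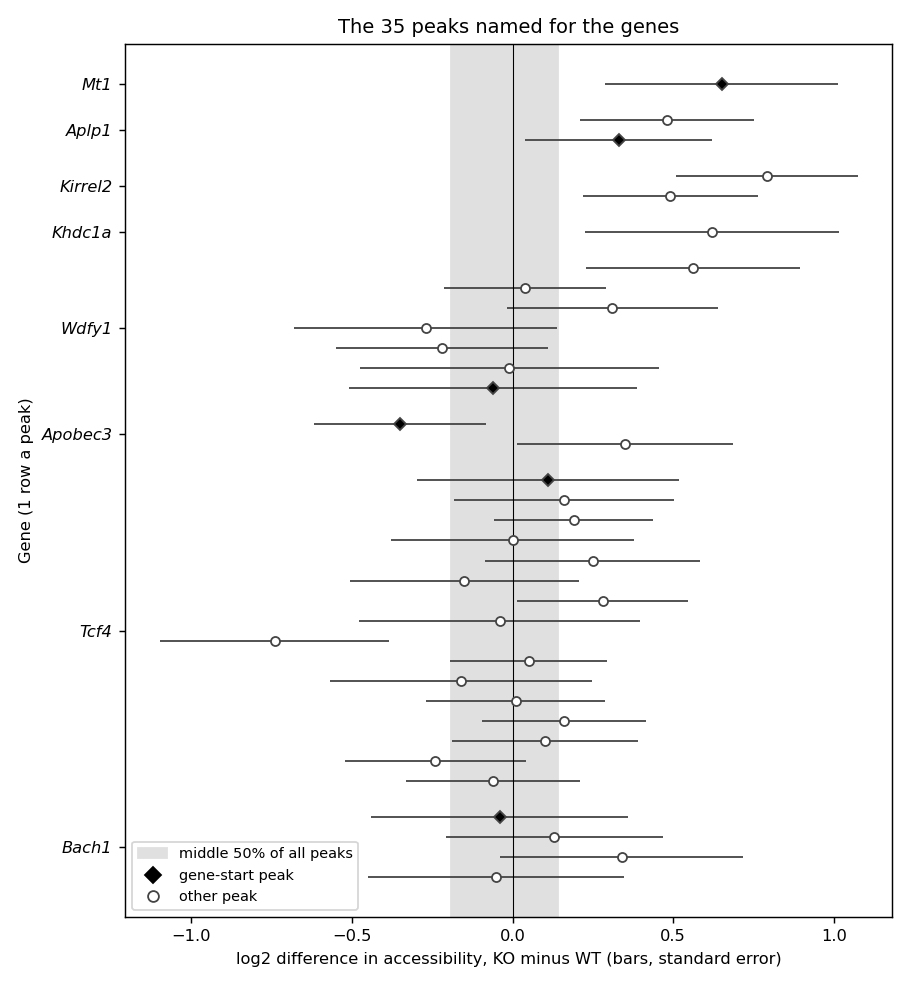
The log2 difference in accessibility (KO minus WT, horizontal axis) is drawn for each of the 35 peaks with its standard error, grouped by gene on the vertical axis, with filled diamonds for the peaks at gene starts and a grey band from -0.19 to 0.14 for the middle 50% of all peaks. The 6 peaks of Mt1, Aplp1, Kirrel2 and Khdc1a lie to the right of the band, and those of the other genes fall on both sides of 0.

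The peaks of a gene were also summed on the linear scale, which gives 1 value per gene and library, and tested over 18004 named genes. The limma test called 0 of the 8 member genes, as it called 0.0% of all genes, and the voom fit on recovered reads called 0 as well. At an unadjusted p below 0.05, 1 member gene, Kirrel2, was higher in the KO (0.467% of all genes were) and 0 were lower (0.294% of all genes were). This number of member genes depended on the processing. It was 3 with median centring, and 4 with quantile normalisation, trimmed mean of M values or voom. With a library left out it ran from 0 (WT library 1, KO library 1 or KO library 3) to 3 (KO library 2). In 3 of the 8 genes, Mt1, Aplp1 and Kirrel2, every KO sum exceeded every WT sum (37.5%, against 2.07% of all genes), and in 0 every KO sum was lower (against 1.27%). An exact two-sided permutation test of 3 against 3 libraries cannot go below p = 0.1, and these 3 genes reached that value.

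**Figure D2:**
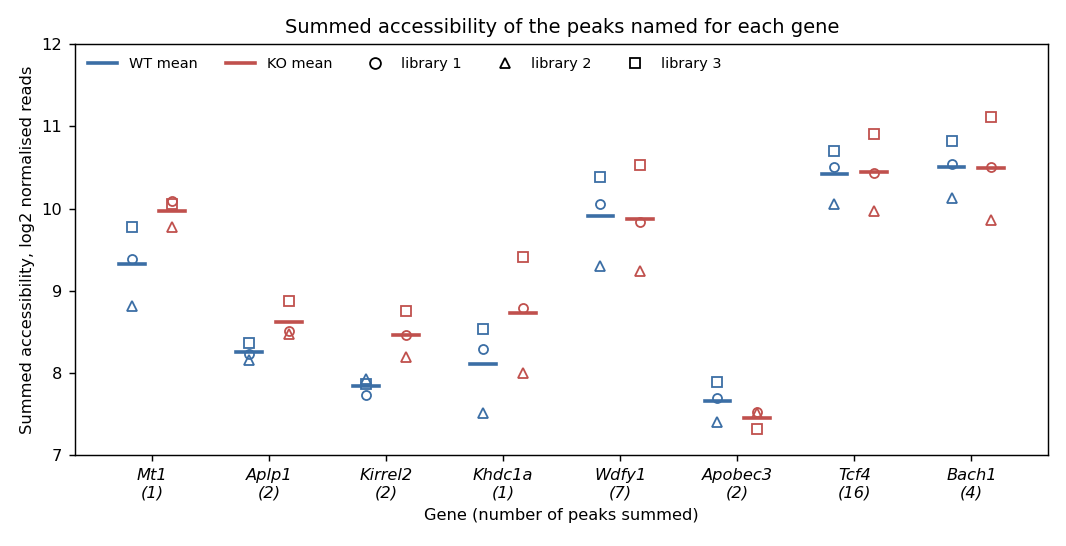
The summed accessibility of each gene's peaks (vertical axis, log2 normalised reads) is plotted for every library, blue for WT and red for KO, with bars at the group means and the number of peaks under each gene. KO values lie above WT values for Mt1, Aplp1 and Kirrel2, and the groups overlap for the 5 other genes.

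Mt1 encodes metallothionein 1, a small cysteine-rich protein that binds zinc and copper and is induced by metals through the transcription factor MTF1. It lies on chromosome 8 (94179082 to 94180327, + strand, GRCm38), and its single peak (94177951 to 94180650) covers the gene start and the coding exons. The promoter is shown because it sits inside this peak. It is the RefSeq window from 250 bases before to 50 after the start (GRCm38.p6, chr8:94178839-94179138, + strand). Capitals mark matches to the metal response element cores TGCACNC and TGCGCNC, read on both strands.
Mt1 promoter: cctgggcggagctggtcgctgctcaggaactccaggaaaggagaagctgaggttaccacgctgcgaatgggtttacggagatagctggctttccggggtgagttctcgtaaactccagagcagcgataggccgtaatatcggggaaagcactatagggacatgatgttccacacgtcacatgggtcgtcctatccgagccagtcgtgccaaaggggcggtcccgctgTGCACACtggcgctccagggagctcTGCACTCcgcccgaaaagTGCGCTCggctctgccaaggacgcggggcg

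This window held 3 such cores, a number reached by 1.97% of 32851 RefSeq promoter windows of the same length. At least 1 TGCACNC was present in 12.6% of these windows and at least 1 TGCGCNC in 15.4%. A match of letters is not evidence of binding.

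Accessibility of the Mt1 peak was 9.39, 8.81 and 9.77 log2 normalised reads in WT libraries 1 to 3 and 10.09, 9.77 and 10.05 in KO libraries 1 to 3, from 244 to 872 reads per library. The groups did not overlap, although the lowest KO and the highest WT library both stood at 9.77 after rounding. The mean was 9.32 ± 0.483 (SD, n = 3) in WT and 9.97 ± 0.171 (SD, n = 3) in KO. The difference was 0.65 on the log2 scale, or 1.57-fold, with a standard error of 0.363 in the fit over peaks (limma, unadjusted p = 0.0944, adjusted p = 1.0). In the fit over gene sums, where the same values were set against other genes, the standard error was 0.295 (limma, unadjusted p = 0.0504, adjusted p = 1.0). The 95% interval ran from -0.00128 to 1.3. For this sum the unadjusted limma p was 0.00306 with voom, 0.0067 after quantile normalisation and 0.281 with peaks within 20 kb, all without a call. The difference was 0.392 without WT library 2 and 0.871 without WT library 3, the lowest and highest values with a library left out.

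The other metallothionein genes lie beside Mt1 on the same chromosome. The peak at the start of Mt2, the companion gene induced by the same metals, read 8.05, 7.16 and 7.94 in WT and 7.84, 7.21 and 7.88 in KO, a log2 difference of -0.08. At the start of Mt3, a metallothionein best known from brain, the values were 5.62, 5.05 and 5.58 in WT and 5.77, 5.91 and 6.08 in KO (difference 0.5, limma unadjusted p = 0.0729), without overlap. At the Mt4 start, whose product is known from stratified epithelium, the difference was 0.16. Across the 9 other peaks within 50 kb of Mt1 the differences ran from -0.5 to 0.5 with a median of 0.06. Whether the Mt1 difference exceeds that of its neighbours was not tested.

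**Figure D3:**
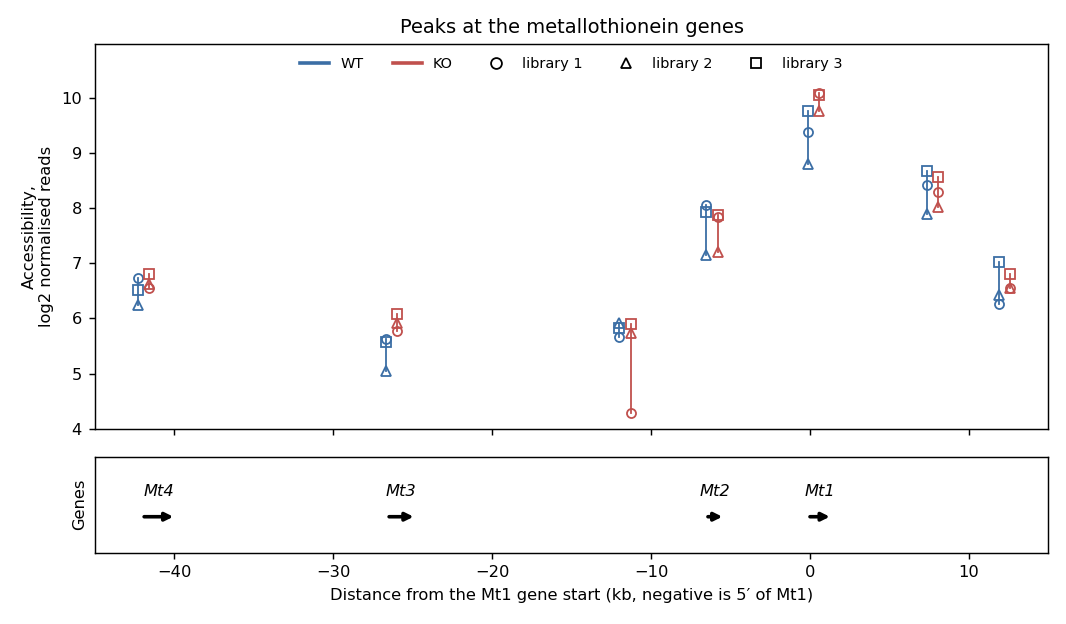
Accessibility (log2 normalised reads) of the peaks around the metallothionein genes is plotted against the distance of the peak centre from the Mt1 start (kb), with blue WT and red KO points for each library, lines spanning each group, and arrows below for the genes. At Mt1 the KO values of 9.77 to 10.09 lie above the WT range, which ends at 9.77 after rounding, while at Mt2 both groups span about the same values.

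In the list of metal-binding and zinc genes (Mt2, Mt3, Mt4, Mtf1 and zinc transporters of the Slc30 and Slc39 families) 12 peaks were named for 7 of the 8 genes. Of these 0 were called, 0 passed an unadjusted p of 0.05, and the median log2 difference was 0.07.

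Aplp1 and Kirrel2 are neighbours on chromosome 7 and are read in the same direction (- strand). Aplp1 (30434982 to 30445535) encodes amyloid precursor-like protein 1, a membrane protein of neurons related to APP. Kirrel2 (30447534 to 30457690) encodes a cell adhesion protein of the immunoglobulin superfamily, related to nephrin, whose gene Nphs1 lies next to it. Kirrel2 starts upstream, and its 3′ end is followed by the Aplp1 start. The 4 member peaks of the locus all had a higher mean in the KO, with differences from 0.33 to 0.79.

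The largest difference among the 35 member peaks was at a peak between both genes (30446701 to 30447450). It is named for Kirrel2 because it begins 84 bp beyond the 3′ end of that gene, but its centre stands at -1.54 kb from the Aplp1 start, on the 5′ side of Aplp1. Its values were 6.50, 6.74 and 6.51 in WT and 7.41, 6.96 and 7.72 in KO, from 46 to 91 reads per library. Every KO library was above every WT library. The log2 difference was 0.79 ± 0.283 (SE), or 1.72-fold (limma, unadjusted p = 0.0145, adjusted p = 1.0). Of the 50-base runs in this peak 14.4% occur elsewhere in the genome.

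The middle 300 bases of this peak and the promoter of Aplp1 are printed to show the interval that carries the largest difference and the gene start beside it. Both are given on the - strand, the peak at chr7:30446926-30447225 and the RefSeq promoter window at chr7:30445533-30445832 (GRCm38.p6). Capitals mark TGACTCA (the AP-1 and Bach motif), TGCGCNC and the E-box CAGGTG on either strand. TGACTCA was found in 8.37% of the middle 300 bases of all peaks and in 5.2% of promoter windows, and CAGGTG in 26.3% and 20.2%.
Peak between Kirrel2 and Aplp1: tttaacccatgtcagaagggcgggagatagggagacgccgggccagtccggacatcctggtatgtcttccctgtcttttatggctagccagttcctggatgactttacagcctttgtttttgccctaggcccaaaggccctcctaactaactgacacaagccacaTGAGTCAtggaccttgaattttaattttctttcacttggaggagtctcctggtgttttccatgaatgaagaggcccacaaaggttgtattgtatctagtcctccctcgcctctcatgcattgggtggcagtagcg
Aplp1 promoter: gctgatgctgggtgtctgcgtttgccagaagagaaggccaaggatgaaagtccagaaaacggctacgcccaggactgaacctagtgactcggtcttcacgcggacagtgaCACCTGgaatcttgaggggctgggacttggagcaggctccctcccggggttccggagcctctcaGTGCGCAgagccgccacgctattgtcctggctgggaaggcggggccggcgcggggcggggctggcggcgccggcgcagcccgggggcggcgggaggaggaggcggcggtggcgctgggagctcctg

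The second Kirrel2 peak (30453451 to 30454650) covers coding exons of the gene. It read 6.93, 7.11 and 7.16 in WT and 7.50, 7.38 and 7.78 in KO, again without overlap. The difference was 0.49 ± 0.272 (limma, unadjusted p = 0.0948). No peak covered the Kirrel2 gene start, and the nearest peak edge was 3040 bp away. Summed over both peaks, Kirrel2 stood at 7.84 ± 0.106 (SD, n = 3) in WT and 8.46 ± 0.283 (SD, n = 3) in KO. That difference of 0.62 had a 95% interval from 0.117 to 1.12 (limma, unadjusted p = 0.0203, adjusted p = 1.0).

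At the Aplp1 start (30444751 to 30446250) accessibility was 7.81, 7.62 and 7.84 in WT and 8.05, 7.83 and 8.35 in KO. KO library 2 fell just under WT library 3, so the groups overlapped by a small margin. The difference was 0.33 ± 0.291 (limma, unadjusted p = 0.281). The other Aplp1 peak, over coding exons (30440401 to 30441300), read 6.26, 6.46 and 6.64 in WT and 6.62, 7.01 and 7.17 in KO, and only KO library 1 lay within the WT range. Its difference was 0.48 ± 0.27 (limma, unadjusted p = 0.0988). The Aplp1 sum was 8.25 ± 0.105 (SD, n = 3) in WT and 8.62 ± 0.223 (SD, n = 3) in KO, a difference of 0.37 with a 95% interval from -0.125 to 0.871. Without KO library 3 it was 0.245 for the sum and 0.189 for the start peak.

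Peaks on either side of the locus showed smaller differences. The peak named for Nfkbid, an inhibitor of the NF-kappaB family, read 8.38, 8.53 and 8.49 in WT and 8.34, 8.43 and 8.50 in KO (difference -0.04). The peak named for Nphs1 read 6.81, 6.99 and 7.22 in WT and 6.82, 7.01 and 7.55 in KO (difference 0.12). KO library 3, the shallowest library, held the highest KO value at all 4 member peaks and at both flanking peaks. Without it the difference at the peak between the genes was 0.606, which is the lowest value of any left-out library.

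**Figure D4:**
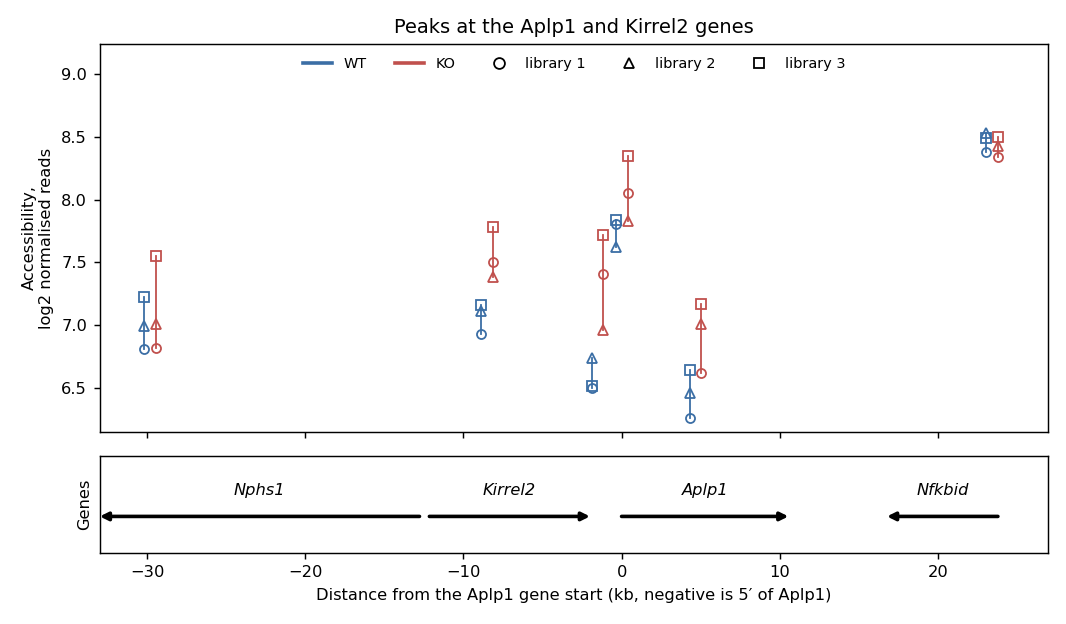
Accessibility (log2 normalised reads) of each peak between Nphs1 and Nfkbid is plotted against the distance of its centre from the Aplp1 start (kb, with negative values on the 5′ side), with blue WT and red KO points for the libraries and arrows for the genes. At the 4 peaks of Kirrel2 and Aplp1 the KO mean is above the WT mean, with differences from 0.33 to 0.79 and overlapping points at both Aplp1 peaks, and at the outer 2 peaks the groups share their range.

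The start peaks of App and Aplp2, the other members of the amyloid precursor family, differed by -0.01 and -0.04. Among genes of nephrin partners, the start peak of Cd2ap, an adaptor protein of cell junctions, differed by 0.09. A peak named for Apbb2, an adaptor that binds APP, differed by 0.94 (limma, unadjusted p = 0.0175), and one named for Tjp1, the tight junction protein ZO-1, by 0.84 (limma, unadjusted p = 0.0407), both without a call. They were 1.61% of the 62 peaks in the amyloid precursor list and 4.35% of the 23 in the nephrin list, against 0.909% of all peaks. Values at both peaks were low. The Apbb2 peak read 4.78, 4.34 and 4.0 in WT and 5.65, 4.84 and 5.46 in KO. At the Tjp1 peak the values were 4.14, 3.88 and 4.95 in WT and 5.21, 4.84 and 5.46 in KO, with overlap. The start peak of Apbb2 differed by -0.12.

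Khdc1a encodes a KH-domain protein known from oocytes and early embryos, and it lies in a cluster of close copies on chromosome 1 (21349641 to 21352200, + strand). Its only peak (21343501 to 21345750) ends 3891 bp before the gene start, on the 5′ side. Accessibility there was 8.29, 7.51 and 8.53 in WT and 8.79, 8.0 and 9.41 in KO. KO libraries 1 and 3 exceeded all WT libraries, whereas KO library 2 lay below WT libraries 1 and 3. The mean was 8.11 ± 0.536 (SD, n = 3) in WT and 8.73 ± 0.707 (SD, n = 3) in KO. The difference was 0.62 ± 0.395 (limma, unadjusted p = 0.139, adjusted p = 1.0), and in the fit over gene sums its 95% interval ran from -0.208 to 1.45. The difference was 0.281 without KO library 3, 0.317 without WT library 2 and 0.986 without KO library 2.

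The 4 other peaks within 50 kb of Khdc1a carried no gene name. The one 5′ of it with its centre at -36.82 kb read 6.18, 5.83 and 6.25 in WT and 5.71, 5.69 and 4.8 in KO, all KO values below all WT values (difference -0.69, limma unadjusted p = 0.0329). At -21.59 kb the difference was 0.29. Directions were thus mixed around the gene.

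No peak covered the Khdc1a start. In the 1 kb centred on that start 39.6% of 50-base runs occur elsewhere in the genome, and over the whole gene 47.3% do. In the Khdc1a peak itself the share was 6.72%.

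Bglap3 encodes an osteocalcin-like protein, a relative of the vitamin K-dependent bone protein osteocalcin, and lies beside Bglap and Bglap2 on chromosome 3 (88368616 to 88372743, - strand). The nearest peak (88376101 to 88376700) is 3358 bp 5′ of the gene start and is named for AC102388.1. It read 6.62, 6.13 and 7.0 in WT and 6.58, 5.98 and 7.35 in KO, with a difference of 0.06 and fully overlapping groups. A peak named for Bglap, 5′ of it with its centre at -15.51 kb, had a difference of -0.04. Among the 9 peaks within 50 kb the differences ran from -0.35 to 0.33 and 0 had an unadjusted p below 0.05. In the 1 kb centred on the Bglap3 start 23.9% of 50-base runs occur elsewhere in the genome, and 31.0% over the gene.

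The list around osteocalcin and mineral (Bglap, Bglap2, Mgp, Spp1, Runx2, Sp7, Vdr and Ggcx) had 22 peaks in 6 genes. Of these 0 were called and 1 (4.55%, against 0.909% of all peaks), at the vitamin D receptor gene Vdr, was higher in the KO at an unadjusted p below 0.05. It read 6.33, 6.43 and 6.55 in WT and 7.17, 6.79 and 7.28 in KO, a difference of 0.64. The list of oocyte KH genes had 1 peak, with a difference of -0.23.

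Wdfy1 encodes a WD-repeat and FYVE-domain protein of early endosomes that recruits the adaptor TRIF to Toll-like receptors 3 and 4. It spans 73.9 kb on chromosome 1 (79702262 to 79776143, - strand). Of its 7 peaks, 1 covers the gene start and the 5′ untranslated region, 1 covers a coding exon, 4 lie in introns and 1 lies 4412 bp beyond the 3′ end. At the start peak (79775701 to 79776600) accessibility was 8.37, 7.29 and 8.71 in WT and 8.12, 7.15 and 8.90 in KO. The groups overlapped fully, number 2 libraries were lowest in both, and the difference was -0.06 ± 0.447 (limma, unadjusted p = 0.893).

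The Wdfy1 peak with the smallest unadjusted p was the one beyond the 3′ end (79696951 to 79697850). It read 5.62, 5.58 and 6.64 in WT and 6.55, 6.01 and 6.95 in KO, with overlap through WT library 3, and differed by 0.56 ± 0.333 (limma, unadjusted p = 0.116). With a library left out the difference ran from 0.334 (KO library 3) to 0.906 (WT library 3). The peak over the coding exon 14.77 kb inside the gene (79760551 to 79762200) differed by -0.27. Summed over the 7 peaks Wdfy1 stood at 9.91 ± 0.555 (SD, n = 3) in WT and 9.87 ± 0.643 (SD, n = 3) in KO. The difference of -0.04 had a 95% interval from -0.878 to 0.796, so a change of the size seen at Mt1 would lie inside it. Its sign turned without WT library 1, WT library 3 or KO library 2, with values from -0.372 to 0.27 over the left-out libraries.

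In the list of Wdfy genes and Toll-like receptor 3 and 4 signalling (Wdfy2, Wdfy3, Wdfy4, Tlr3, Tlr4, Ticam1, Ticam2, Ly96, Irf3 and Traf6) 35 peaks were named, with 0 called and 3 at an unadjusted p below 0.05, all higher in the KO (8.57%, against 0.909% of all peaks). They lie at Tlr4, the receptor of bacterial lipopolysaccharide (difference 1.02), at its partner Ly96, also called MD-2 (0.94), and at Wdfy3 (0.68). The Ly96 peak read 4.29, 4.34 and 5.21 in WT and 5.58, 5.38 and 5.70 in KO, without overlap. At the Tlr4 peak the groups overlapped, with WT library 1 at 5.14 and KO library 2 at 4.98, and WT library 2 was low at 3.88. None of these peaks is the one at the gene start. The start peaks differed by 0.61 at Tlr4, 0.02 at Ly96 and -0.12 at Wdfy3. The median of the list was 0.0.

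Apobec3 encodes a cytidine deaminase that restricts retroviruses. It lies on chromosome 15 (79891659 to 79915906, + strand) and had the only member peak at which all KO values were below all WT values. This peak (79891351 to 79892700) covers the gene start and a coding exon. It read 7.31, 7.22 and 7.55 in WT and 7.10, 7.06 and 6.85 in KO, from 29 to 187 reads per library. The difference was -0.35 ± 0.268 (limma, unadjusted p = 0.206, adjusted p = 1.0), and it stayed between -0.425 and -0.261 with each library left out.

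The second Apobec3 peak, over a coding exon 15.37 kb from the start (79906801 to 79907250), differed in the other direction. It read 5.62, 4.34 and 5.64 in WT and 5.58, 5.61 and 5.46 in KO, so that WT library 2 alone stood apart, and the difference was 0.35 ± 0.336 (limma, unadjusted p = 0.316). More than any other member peak, it shared sequence with other places, since 56.6% of its 50-base runs occur elsewhere in the genome. Summed over both peaks Apobec3 stood at 7.66 ± 0.245 (SD, n = 3) in WT and 7.45 ± 0.118 (SD, n = 3) in KO, a difference of -0.21 with a 95% interval from -0.684 to 0.263. This value was -0.341 without WT library 2 and -0.098 without WT library 3.

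Of 2 RefSeq promoter windows of Apobec3, the one within the start peak is printed (chr15:79892158-79892457, + strand, GRCm38.p6), as this is the only gene start among the members with lower values in every KO library. It held no match to the motifs marked above, nor to the antioxidant response element core TGACNNNGC, which 12.4% of promoter windows hold and which can overlap the AP-1 motif, nor to the E-box CAGCTG, which 16.3% hold.
Apobec3 promoter: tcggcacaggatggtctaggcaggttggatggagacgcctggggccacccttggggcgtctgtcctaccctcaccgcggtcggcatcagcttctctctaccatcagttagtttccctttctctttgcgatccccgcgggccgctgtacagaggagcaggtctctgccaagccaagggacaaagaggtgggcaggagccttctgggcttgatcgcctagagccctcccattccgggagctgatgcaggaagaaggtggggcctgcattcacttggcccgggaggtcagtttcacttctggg

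The start peak of Apobec1, the intestinal enzyme that edits apolipoprotein B RNA, differed by 0.07, and that of the RNA deaminase gene Adar by 0.15.

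Tcf4 encodes an E protein, a basic helix-loop-helix factor that binds E-boxes with tissue-specific partners, and is not Tcf7l2, the Wnt effector that shares the alias TCF4. It is the longest of the members, at 346.0 kb on chromosome 18 (69343356 to 69689079, + strand). Of its 16 peaks, 13 lie in introns and 3 overlap exons, including the peak at the gene start. That start peak (69343501 to 69345150, beginning 145 bp inside the gene) read 8.56, 7.95 and 9.05 in WT and 8.52, 7.94 and 9.43 in KO. The groups overlapped fully, and the difference was 0.11 ± 0.408 (limma, unadjusted p = 0.788).

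Over the gene body, where the study describes H3K9me3, the peaks of Tcf4 did not move one way. Differences at the 16 peaks ran from -0.74 to 0.28 with a median of 0.03, 9 had a higher and 7 a lower mean in the KO, and all 16 had overlapping groups. The lowest was an intronic peak 123.97 kb from the start (69467101 to 69467550), at 5.62, 4.58 and 5.52 in WT and 4.71, 4.22 and 4.58 in KO. WT library 2 lay within the KO range, and counts there were low, from 6 to 46 reads. The difference was -0.74 ± 0.356 (limma, unadjusted p = 0.057).

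Summed over its peaks Tcf4 stood at 10.42 ± 0.329 (SD, n = 3) in WT and 10.44 ± 0.47 (SD, n = 3) in KO. The difference was 0.02 with a 95% interval from -0.668 to 0.699. Its sign turned without WT library 2 or KO library 3, and values ranged from -0.222 to 0.248 over the left-out libraries. The related list of E proteins and partners (Tcf3, Tcf12, Id1 to Id4, Atoh1, Ascl2, Neurog3, Neurod1 and Hes1) had 24 peaks, 0 of them called. 1 peak, named for Tcf12, had an unadjusted p below 0.05 (difference 0.64, 4.17% of the list against 0.909% of all peaks), and the start peaks of Tcf3 and Tcf12 differed by 0.1 and -0.04.

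**Figure D5:**
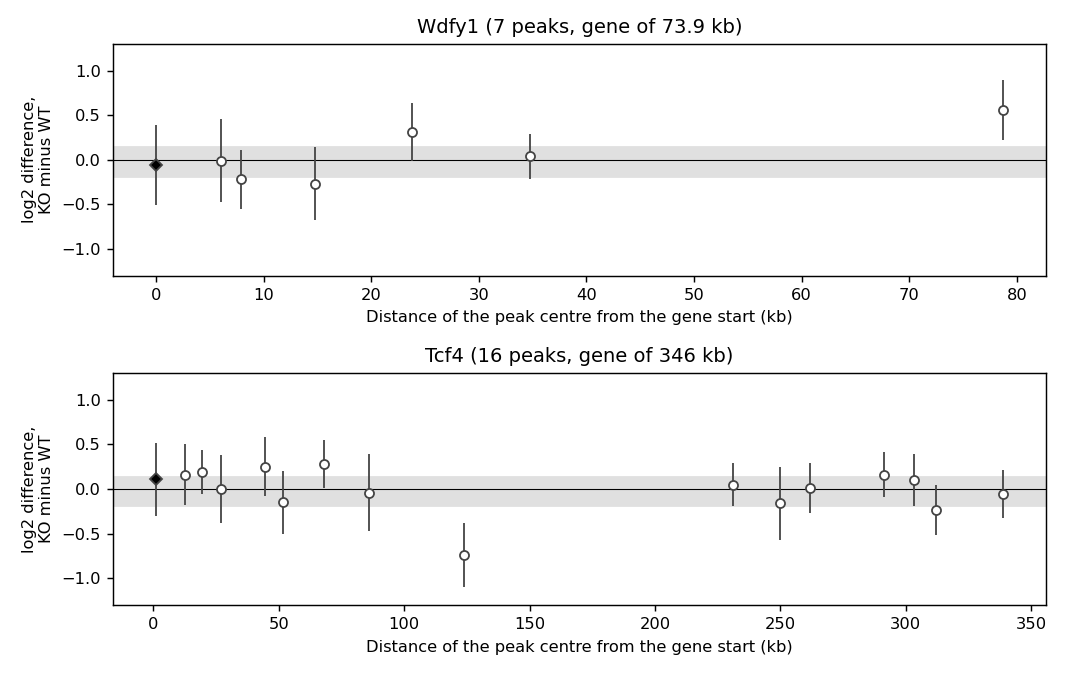
The log2 difference (KO minus WT, vertical axis) with its standard error is plotted against the distance of each peak from the gene start (kb) for Wdfy1 with 7 peaks and Tcf4 with 16, with filled diamonds at the gene starts and a grey band for the middle 50% of all peaks. The differences scatter on both sides of 0 along both genes, from -0.27 to 0.56 at Wdfy1 and from -0.74 to 0.28 at Tcf4.

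Bach1 encodes a transcriptional repressor that is released from DNA by heme and competes with NRF2 at antioxidant response elements, among them that of the heme oxygenase gene Hmox1. It lies on chromosome 16 (87698945 to 87733346, + strand) with 4 peaks. The start peak (87697801 to 87700650) read 9.53, 9.13 and 9.76 in WT and 9.38, 8.75 and 10.18 in KO. KO values lay on both sides of the WT range, and the difference was -0.04 ± 0.399 (limma, unadjusted p = 0.926). Each library gave this peak between 290 and 868 reads.

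The Bach1 peak with the smallest unadjusted p overlaps a coding exon (87719251 to 87719700). It read 4.43, 5.83 and 4.58 in WT and 5.52, 5.56 and 4.8 in KO, so WT library 2 was the highest of all, and the difference was 0.34 ± 0.378 (limma, unadjusted p = 0.377). It ran from 0.086 without WT library 1 to 0.786 without WT library 2, and was 0.655 with voom. The 2 intronic peaks differed by 0.13 and -0.05. The sum over the 4 peaks was 10.5 ± 0.35 (SD, n = 3) in WT and 10.49 ± 0.623 (SD, n = 3) in KO, with a difference of -0.01 and a 95% interval from -0.764 to 0.753. Its sign turned without WT library 1, WT library 3 or KO library 2, with values from -0.314 to 0.309 over the left-out libraries.

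The list of Bach partners and oxidative stress genes (Bach2, Maff, Mafg, Mafk, Nfe2l2, Keap1, Hmox1, Nqo1, Gclc, Gclm, Slc7a11, Fth1 and Ftl1) had 44 peaks in 12 genes, with 0 called, 0 at an unadjusted p below 0.05 and a median of 0.06. The start peaks of Hmox1 and Nqo1, known targets of Bach1, differed by -0.09 and 0.09. That of Nfe2l2, which encodes NRF2, differed by 0.07.

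The member genes differed in the level and base composition of their start peaks. Per kb of peak, Wdfy1 had 334 normalised reads, Mt1 310, Bach1 259, Tcf4 248, Aplp1 163 and Apobec3 109, which placed Wdfy1 at the 91.6th and Apobec3 at the 37.5th percentile of 16584 peaks at gene starts. CpG density was 58.0 per kb at the Aplp1 start peak, 52.6 at Bach1, 47.8 at Wdfy1, 33.3 at Tcf4, 30.7 at Mt1 and 28.1 at Apobec3, against a median of 39.2 at gene starts and 8.89 over all peaks. The Khdc1a peak had 9.78 CpG per kb and the peak between Kirrel2 and Aplp1 17.3.

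The pattern of the start peaks over the 6 libraries was shared with many genes for some members and with few for others. At Wdfy1, Tcf4 and Bach1 the values followed the order of the libraries shared by many gene starts, since 6488 of 20154, 5845 of 20155 and 4053 of 20155 other genes had a Pearson r above 0.95 with them. These values are a description over 6 libraries, which all gene starts share along with their depth. Genes that share a start peak were counted separately. The genes most like them were Mrps33 and Cstf2t for Wdfy1 (r = 1.0 each), Cox17 and Gm21987 for Tcf4 (1.0 each), and Setdb1 and Gm37500 for Bach1 (0.999 each). At Mt1, Aplp1 and Apobec3 only 38, 42 and 11 genes passed the same r. Nearest were Trim46 and Krtcap2 for Mt1 (0.987 each), Gm32764 and C1qtnf2 for Aplp1 (0.995 each), and Gm37193 (0.999) and Zfp870 (0.989) for Apobec3.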

How the data were processed

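ATAC-seq of small intestinal crypt nuclei was analysed in 6 libraries, 3 WT and 3 KO, grouped by their titles. The authors trimmed reads with Trim Galore 0.4.1, mapped them to GRCm38 with Bowtie 2 2.2.5, removed duplicates and reads of mapping quality below 20, and called 1 set of MACS peaks in SeqMonk. The deposited values are log2 read counts per peak, scaled by the authors to the largest library. This scaling equalises totals but not the share of reads in strong peaks. Whole reads could be recovered for 100.0% of values. A second table, holding peaks past the authors' edgeR threshold with that test's adjusted p, was not used.

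Peaks were matched by exact gene name, which the authors attached within 5 kb. All peaks (none had a mean below 20) were fitted with limma 3.58.1 in R 4.3.3 (log2 values, trended prior), with Benjamini-Hochberg adjustment over the whole table and a threshold of 0.05, and likewise the log2 of linear sums per name. The fit was also run on simulated counts. These had planted changes larger than any member difference and no shared deviations between libraries, so they do not show what it can detect here. A gene-start peak is the nearest within 1 kb of the annotated start (GENCODE, GRCm38). Peaks named in each library were the gene-start peak, the one with the smallest unadjusted p and any called peak. Promoters matched for 6 of 9 genes (RefSeq, GRCm38.p6). Nothing says that libraries of a group came from separate mice, so p-values rest on the spread between libraries. limma moderates that spread towards the trend over all peaks or sums, so standard errors are not those of 1 peak alone. The members and lists were chosen with earlier results of these data known. Alternatives were other scalings, voom, filters, thresholds, peak assignments, a replicate block and leaving out each library. Some related genes, list counts and a sequence are not reported here.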

Additional observations from a re-analysis of the deposited data

How the results depend on the processing

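Depth limits the weakest peaks. The member peak with the fewest reads in any library, 1 of Tcf4, rests on 6 to 46 reads a library. The count of 0 called member peaks and 0 called member genes held under every scaling, filter, threshold and peak assignment and with each library left out. The number of member peaks at an unadjusted p below 0.05 was 1 as reported, 4 with median centring, quantile normalisation or voom, 5 with trimmed mean of M values, 0 with peaks overlapping the gene, and from 0 to 3 with a library left out. The median difference of member peaks ran from 0.031 to 0.161 across these settings and from -0.021 (without KO library 3) to 0.246 (without KO library 2) with a library left out, where the median of all peaks moved to -0.11 and 0.08. It was -0.14 without WT library 2. Over all peaks 0 were called in the reported fit, 2 with median centring or trimmed mean of M values, 3 with quantile normalisation or voom, 30 without KO library 2 and 1 without WT library 3. The sums closest to 0 changed sign. Tcf4 went to -0.003 with quantile normalisation and -0.011 with voom, and Bach1 to 0.003 with median centring, 0.006 with trimmed mean of M values and 0.042 with peaks within 20 kb. With libraries left out the sums ran from -0.372 to 0.27 (Wdfy1), -0.222 to 0.248 (Tcf4) and -0.314 to 0.309 (Bach1), and the start peaks from -0.484 to 0.393 (Wdfy1), -0.29 to 0.457 (Tcf4) and -0.408 to 0.303 (Bach1). The cause of these moves was not tested.

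WT and KO share the numbers 1 to 3. The correlation of same-numbered libraries' deviations from their group means was 0.0361, 0.418 and 0.407. No label ties same-numbered libraries together, so a fit that pairs them was kept as an alternative. These correlations do not show that the libraries are unpaired, and the reported fit leaves any shared deviation in its error. With the number as a replicate block, 3 member peaks and 3 member genes were called, Mt1, Kirrel2 and Khdc1a (adjusted p = 3.4e-06, 0.00125 and 0.000521 for the sums by limma), among 272 of all peaks and 37 of 18004 genes. At an unadjusted p below 0.05 there were 9 member peaks among 8491 of all peaks, against 2821 of all peaks without the block. In the block fit over peaks limma's prior had 6880 degrees of freedom, against 10.6 without the block, so errors came almost wholly from the trend over peaks. With the block and quantile normalisation together 3 member peaks among 219 and 3 member genes among 34 were called, 10 member peaks among 9321 had an unadjusted p below 0.05, and the Tcf4 sum was -0.003. The prior then had 54.9 degrees of freedom. Adjusted p for the sums was 0.000304 (Mt1), 0.00689 (Kirrel2) and 0.00169 (Khdc1a) by limma.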

Other observations

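Near the members, the peak with the smallest unadjusted p within 50 kb was one without a gene name, 3′ of Wdfy1 with its centre 95.17 kb from the Wdfy1 start. It read 6.37, 6.34 and 6.77 in WT and 5.58, 5.16 and 6.00 in KO, so that no KO library reached the lowest WT library (difference -0.91, limma unadjusted p = 0.00533). Another unnamed peak, 5′ of Apobec3 with its centre at -50.18 kb from the Apobec3 start, read 5.29, 5.52 and 5.49 in WT and 4.58, 4.77 and 5.00 in KO (difference -0.65, limma unadjusted p = 0.0344). Neither was called, and both were singled out after their values were seen.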
